A study of Homo sapiens with 24 samples.

Results

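The transcripts of 35 genes of the hypoxia response and of glycolysis were followed in U937, a suspension line of human myelomonocytic cells. The genes were chosen by name, with earlier results of these data known, and are 35 of the 55773 gene names counted. Their counts set beside the shares of all genes are therefore descriptive. RNA had been sequenced in 24 libraries, 3 in each of 8 groups. Cells received UNC0638 at 4 µM or 2 µM, which blocks the histone methyltransferases G9a and GLP, or the solvent DMSO. Other cells carried hairpin 2 or 3 against G9a, hairpin 2 or 4 against SUV39H1, or a scrambled hairpin. G9a (the product of EHMT2) and SUV39H1 both methylate lysine 9 of histone H3, a mark of silent chromatin. UNC0638 was present for 3 days before harvest. The G9a and SUV39H1 hairpins were delivered by lentivirus and followed by puromycin selection over 3 days. For DMSO a harvest time, and for the scrambled hairpin a selection step, are not stated in the labels. No group is labelled as grown at low oxygen, and the hairpins lower their targets without removing them. The labels do not say that the replicates came from separate cultures, so the p-values measure only the spread between these libraries, which may be technical.

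Cells sense oxygen through prolyl hydroxylases (the EGLN enzymes), which mark the HIF alpha subunits for destruction by the VHL ligase while oxygen is present. When oxygen falls, HIF1A or EPAS1 (HIF-2 alpha) pairs with ARNT, binds the short sequences ACGTG or GCGTG and raises genes for glucose uptake, glycolysis, vessel growth and mitochondrial clearance. Many glycolytic genes are also targets of other factors, such as MYC, and myeloid cells rely strongly on glycolysis. The members cover secreted factors, mitochondrial proteins, oxygen sensors, glucose transporters, enzymes of each step of glycolysis, the kinases and phosphatases that pace it, and enzymes of collagen and of protein folding.

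Because the members include known HIF targets, the promoters of 6 of them are shown, those with the largest change between the UNC0638 doses among the members in the sequence table used here. The 250 bases before each start are from RefSeq (GRCh38.p14), written 5′ to 3′ on the gene's strand, and capitals mark ACGTG or GCGTG on either strand, the core of the HIF-binding element. ADM lies at chr11:10304823-10305072, plus strand; PFKFB4 at chr3:48556804-48557053, minus strand; ALDOC at chr17:28576896-28577145, minus strand. The PDK1 starts lie at chr2:172555123-172555372, plus strand and chr2:172555840-172556089, plus strand. ANKRD37 lies at chr4:185396591-185396840, plus strand, and P4HA1 at chr10:73096867-73097116, minus strand.
ADM: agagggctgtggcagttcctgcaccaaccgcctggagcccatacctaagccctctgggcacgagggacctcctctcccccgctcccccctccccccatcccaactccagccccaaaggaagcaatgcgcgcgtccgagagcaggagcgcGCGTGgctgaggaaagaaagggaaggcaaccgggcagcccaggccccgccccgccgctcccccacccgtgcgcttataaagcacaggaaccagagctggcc
PFKFB4: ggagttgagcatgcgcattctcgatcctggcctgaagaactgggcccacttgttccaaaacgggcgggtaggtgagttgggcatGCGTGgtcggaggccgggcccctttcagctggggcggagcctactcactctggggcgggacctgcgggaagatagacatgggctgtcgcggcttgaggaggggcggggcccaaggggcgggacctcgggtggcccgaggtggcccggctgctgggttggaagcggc
ALDOC: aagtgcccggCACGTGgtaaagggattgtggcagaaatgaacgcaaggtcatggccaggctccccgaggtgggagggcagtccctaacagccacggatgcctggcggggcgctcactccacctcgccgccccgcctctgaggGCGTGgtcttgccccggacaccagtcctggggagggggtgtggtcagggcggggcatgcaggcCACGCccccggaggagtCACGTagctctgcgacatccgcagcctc
PDK1 start 1: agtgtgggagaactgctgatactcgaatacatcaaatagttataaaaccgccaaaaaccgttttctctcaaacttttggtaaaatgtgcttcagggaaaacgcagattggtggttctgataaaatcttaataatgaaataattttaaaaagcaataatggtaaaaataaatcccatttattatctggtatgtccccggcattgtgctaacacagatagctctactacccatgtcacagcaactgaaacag
PDK1 start 2: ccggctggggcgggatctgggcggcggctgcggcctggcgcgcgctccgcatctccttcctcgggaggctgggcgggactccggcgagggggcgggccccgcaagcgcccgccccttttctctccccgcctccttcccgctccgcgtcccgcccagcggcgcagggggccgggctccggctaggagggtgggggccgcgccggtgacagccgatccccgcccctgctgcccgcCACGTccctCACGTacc
ANKRD37: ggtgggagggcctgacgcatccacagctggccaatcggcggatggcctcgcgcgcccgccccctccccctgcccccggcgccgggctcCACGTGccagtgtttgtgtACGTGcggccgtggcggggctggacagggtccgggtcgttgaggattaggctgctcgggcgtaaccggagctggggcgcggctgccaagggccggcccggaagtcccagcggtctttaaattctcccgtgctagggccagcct
P4HA1: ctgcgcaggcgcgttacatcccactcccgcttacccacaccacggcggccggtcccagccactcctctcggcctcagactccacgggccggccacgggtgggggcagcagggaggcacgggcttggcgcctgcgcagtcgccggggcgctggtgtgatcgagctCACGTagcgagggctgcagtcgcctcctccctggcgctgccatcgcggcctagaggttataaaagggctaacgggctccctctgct
ALDOC held 5 matches, ANKRD37 3, the second PDK1 start 2 and the first none, and ADM, PFKFB4 and P4HA1 1 each. CACGTG, present in ALDOC and ANKRD37, reads the same on both strands and counts as a pair of overlapping matches. Of the 35 members, 29 were found in the table, with 47 starts, and BNIP3L, NDRG1, SLC2A3, SPAG4, STC1 and VEGFA were not matched. At least 1 of the motifs was found in 31 of the 47 windows (65.957%), against 15172 of 35116 windows in the whole table (43.205%). ACGTG, with or without GCGTG, was found in 46.809% of the member windows and in 18.513% of all windows. GCGTG, with or without ACGTG, was found in 38.298% and 32.216%. These matches describe the letters only, since binding was not measured.

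Gene counts per library came to between 31545854 and 53803704, and the members took 1.22275 to 2.04645% of them. CPM stands for counts scaled to a library size of 1e+06 after TMM scaling, with n = 3 libraries per group. Where genes are compared with each other, RPKM is used, which is CPM per kilobase of the deposited gene length. Gene positions are on hg19. The hairpins were checked by their targets. EHMT2 (chromosome 6, 31847536 to 31865464, minus strand) averaged 73.7 ± 2.79 and 73.2 ± 3.69 CPM with G9a hairpins 2 and 3, against 144 ± 8.52 CPM with the scrambled hairpin (SD). SUV39H1 (chromosome X, 48553945 to 48567403, plus strand) averaged 18.6 ± 0.403 and 21.1 ± 1.84 CPM with SUV39H1 hairpins 2 and 4, against 58.2 ± 1.67 CPM with the scrambled hairpin. Of 15 markers of myelomonocytic cells, 14 or 15 averaged over 1 CPM in each group. Their summed level ranged from 2042 to 2204 CPM at 4 µM, 2221 to 2342 CPM at 2 µM and 2584 to 2878 CPM in DMSO. It ranged from 3971 to 4296 CPM with the G9a hairpins, 4231 to 5783 CPM with the SUV39H1 hairpins and 2901 to 3051 CPM with the scrambled hairpin, so it moved with the groups, and its part in the results was not tested. Summed erythroid markers stayed at or below 3.55 CPM, fibroblast markers at or below 1.81 CPM, epithelial markers at or below 0.496 CPM and endothelial markers at or below 0.263 CPM. Lymphoid markers summed to 141 to 225 CPM, of which the granule gene NKG7 gave 136 to 205 CPM as group means, while CD3D, CD3G and MS4A1 were at or near 0. In bulk RNA, fewer cells of a type and less RNA per cell cannot be told apart.

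All members were in the count table, and 33 had enough counts to be tested. EGLN3, an oxygen sensor that HIF itself induces in many cells, held 2 counts in all 24 libraries, and P4HA2, a collagen prolyl hydroxylase subunit, held 141, at most 11 in a library. As RPKM averaged over the groups, GAPDH stood highest at 1006, followed by ENO1 (641), PGK1 (307), PKM (287), TPI1 (260.2) and ALDOA (200.5). LDHA stood at 128 RPKM, PDK1 at 27.6 RPKM, HK2 at 29.4 RPKM, SLC2A1 at 16.1 RPKM, ADM at 0.986 RPKM and STC1 at 0.469 RPKM. The most abundant members were thus glycolytic enzymes, and ADM and STC1 the least among those tested. DMSO had the highest mean of the 8 groups for 29 of the 33 tested members. The exceptions were VEGFA, PFKFB3, GAPDH and MXI1. The lowest mean lay with SUV39H1 hairpin 4 for 12 members, G9a hairpin 2 for 9, SUV39H1 hairpin 2 for 5, the scrambled hairpin for 4 and G9a hairpin 3 for 3. How often each group was highest or lowest among all genes was not counted. STC1 spread widest, its highest group mean being 28.9 times its lowest, followed by ADM (8.96 times), PFKFB4 (7.29 times), NDRG1 (4.31 times) and SLC2A3 (4.12 times).

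The dose comparison asked whether these genes answer to the amount of inhibitor. Between 4 µM and 2 µM, 5 members fell and none rose (edgeR's quasi-likelihood test at a p under 0.05 after Benjamini-Hochberg adjustment over 20147 genes, the rule for all calls here). The 5 were the secreted factors STC1 and ADM, SPAG4, the glycolytic regulator PFKFB4 and the mitochondrial kinase PDK1. Across all genes tested, 0.452% were lower and 1.39% higher by the same rule. No member was higher even at an unadjusted p under 0.05, where 15 were lower, and DESeq2 called 7 lower and none higher. Over all genes DESeq2 called 410 in either direction. The share of all genes at an unadjusted p was not counted, here or below. The log2 fold change lay below 0 for 31 of 33 members, with a median of -0.11 against a median of 0.00 for all genes. In 14 members every 4 µM library lay below every 2 µM library, which was so for 8.12% of all genes. Without the filter on low counts 9 members were called lower, the added ones being ALDOC (-0.27), BNIP3L (-0.18), NDRG1 (-0.18) and P4HA1 (-0.17). DESeq2 and upper quartile scaling each added BNIP3L (-0.19 and -0.20) and FAM162A (-0.17 and -0.18). BNIP3L also passed in the compared libraries alone (-0.19), and NDRG1 without 2 µM replicate 1 (-0.24).

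STC1 (chromosome 8, 23699428 to 23712320, minus strand) encodes stanniocalcin-1, a secreted glycoprotein hormone. It had 3.33, 3.62 and 2.87 CPM at 4 µM, against 4.77, 5.08 and 4.97 CPM at 2 µM, and DMSO libraries had 5.84, 4.82 and 4.63 CPM. The 2 µM libraries overlapped those of DMSO, and the 4 µM libraries lay below both. Its log2 fold change was -0.60 ± 0.11 at 4 µM against 2 µM (± SE, edgeR adjusted p = 0.00093), while at 2 µM against DMSO it was -0.05 ± 0.10 and did not pass.

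SPAG4 (chromosome 20, 34203814 to 34208971, plus strand), a nuclear envelope protein with a SUN domain and a known HIF target, had 8.10, 6.84 and 7.09 CPM at 4 µM, against 9.49, 11.8 and 10.2 CPM at 2 µM, and 12.7, 13.3 and 15.1 CPM in DMSO. No library of one group overlapped those of another. The log2 fold change between the doses was -0.51 ± 0.09 (edgeR adjusted p = 0.00056). ADM (chromosome 11, 10326227 to 10328944, plus strand) encodes adrenomedullin, a peptide that widens vessels. It had 2.97, 3.44 and 3.29 CPM at 4 µM, against 4.37, 4.27 and 4.99 CPM at 2 µM, and 7.10, 6.56 and 6.85 CPM in DMSO. The 3 groups were again separate, and the change between the doses was -0.50 ± 0.08 on the log2 scale (edgeR adjusted p = 0.00041).

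PFKFB4 (chromosome 3, 48555117 to 48599448, minus strand) is a bifunctional enzyme that sets fructose 2,6-bisphosphate, the activator of phosphofructokinase. It had 46.6, 47.8 and 50.8 CPM at 4 µM, against 65.4, 67.5 and 66.5 CPM at 2 µM, and 78.6, 82.8 and 86.8 CPM in DMSO. The groups were separate, and the change between doses was -0.46 ± 0.04 on the log2 scale (edgeR adjusted p = 7.9e-08). Its paralog PFKFB3 changed by 0.01 ± 0.04 between doses, with a 95% interval of -0.07 to 0.10, and did not pass. PDK1 (chromosome 2, 173420101 to 173489823, plus strand), the kinase that turns down pyruvate dehydrogenase, had 527, 510.5 and 482 CPM at 4 µM, against 620.0, 567 and 572 CPM at 2 µM, and 756, 674 and 657 CPM in DMSO. Its libraries did not overlap between groups, but the change between doses was small, -0.21 ± 0.05 on the log2 scale (edgeR adjusted p = 0.018). That call ended when 2 µM replicate 1 (-0.17), 4 µM replicate 2 (-0.22) or 4 µM replicate 3 (-0.18) was left out, and in the compared libraries alone (-0.21). PDK1 overlaps AC093818.1 on the other strand, which averaged 30.6 CPM, and the kit does not mark strand. The same holds for ANKRD37 and UFSP2, which averaged 15.8 CPM against 4.71 CPM for ANKRD37.

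**Figure D1:**
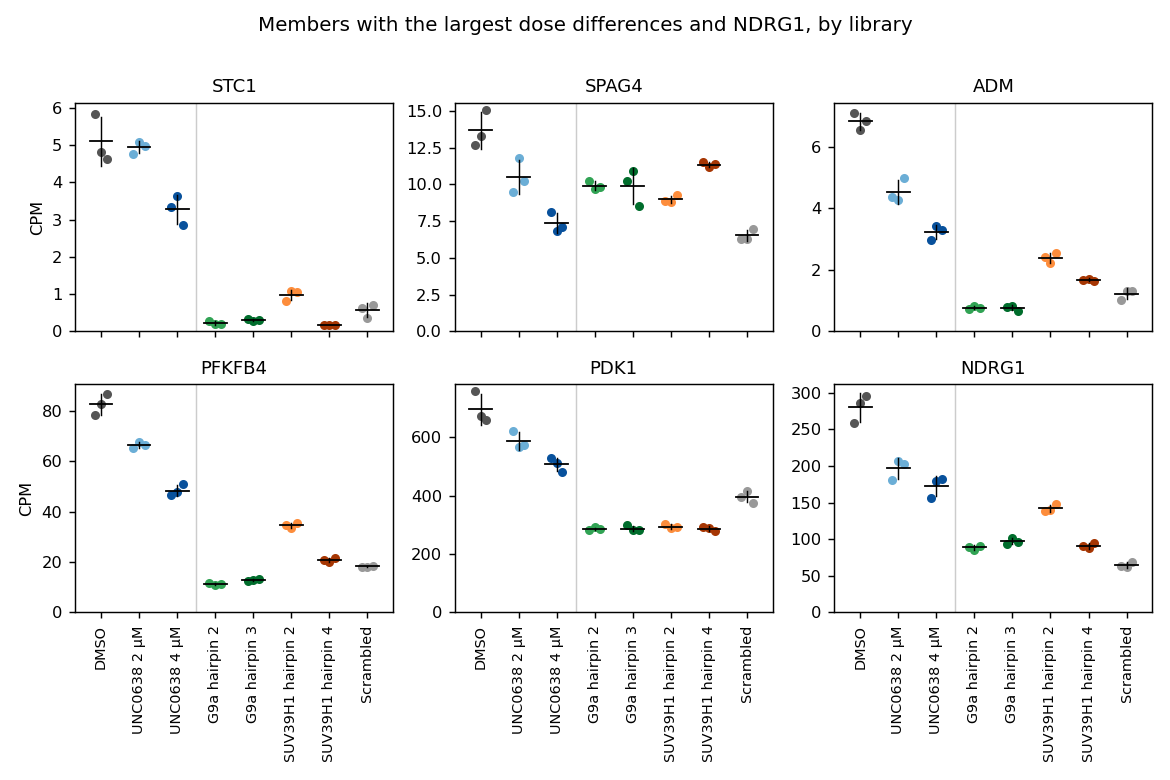
CPM per library (linear axes from 0) of STC1, SPAG4, ADM, PFKFB4, PDK1 and NDRG1 in the 8 groups. Points are libraries, horizontal lines means and vertical lines SD (n = 3), and the grey line parts the inhibitor arm from the hairpin arm. ADM and PFKFB4 step down with each dose, and the scrambled libraries lie below the DMSO libraries for every gene drawn.

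Against DMSO, 24 of 33 members fell at 4 µM and 11 fell at 2 µM, and none rose at either dose. Across all genes 9.73% were lower and 10.2% higher at 4 µM, and 3.34% were lower and 3.83% higher at 2 µM. At an unadjusted p under 0.05, 26 members were lower and none higher at 4 µM, and 19 lower and none higher at 2 µM. DESeq2 called 24 and 12 lower and none higher, and over all genes it called 3586 and 1283 in either direction. All 33 log2 fold changes were below 0 at both doses, with medians of -0.24 at 4 µM and -0.13 at 2 µM, while the median of all genes was -0.01 at 4 µM and 0.00 at 2 µM. Every 4 µM library lay below every DMSO library in 22 members, and every 2 µM library in 14, beside 14.4% and 9.71% of all genes. Both comparisons used the same DMSO libraries. The group means fell in the order DMSO, 2 µM, 4 µM in 31 members, and in PFKFB3 and HK1 they neither fell nor climbed through the doses. The share of all genes with this order was not counted. DMSO replicates 1 and 3 differed more than any other replicate pair, and without DMSO replicate 1 the counts were 28 and 15.

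Among secreted factors, ADM changed by -1.08 ± 0.08 at 4 µM against DMSO (edgeR adjusted p = 3e-11) and STC1 by -0.65 ± 0.11. VEGFA, the vessel growth factor, had 237, 232 and 238 CPM at 4 µM, against 269, 278 and 277 CPM in DMSO, and fell by 0.22 on the log2 scale. The 2 µM libraries, at 235, 245 and 239 CPM, overlapped those at 4 µM, and the change between doses was -0.02 ± 0.03 with a 95% interval of -0.09 to 0.05. NDRG1 (chromosome 8, 134249414 to 134314265, minus strand), a stress-response gene raised by hypoxia and by differentiation, had 156, 179 and 182 CPM at 4 µM, 181, 206 and 203 CPM at 2 µM and 258, 286 and 295 CPM in DMSO. Both doses lay below DMSO, with log2 changes of -0.70 ± 0.06 at 4 µM and -0.51 ± 0.06 at 2 µM, but the doses overlapped each other. SPAG4 changed by -0.90 ± 0.08 at 4 µM, ANKRD37 (an ankyrin-repeat HIF target) by -0.30 ± 0.07, and MXI1, an antagonist of MYC, by -0.14 ± 0.05, which did not pass.

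All 4 mitochondrial members fell at 4 µM against DMSO. They were PDK1 (-0.46 ± 0.05), the mitophagy receptors BNIP3L (-0.47 ± 0.05) and BNIP3 (-0.33 ± 0.07), and FAM162A (-0.20 ± 0.05), a HIF-responsive protein of the mitochondrion. Of the sensors EGLN1 fell (-0.23 ± 0.06). P4HA1, the catalytic subunit of collagen prolyl hydroxylase, fell (-0.38 ± 0.06), and the oxidase ERO1L, which forms disulfide bonds in the endoplasmic reticulum, changed by -0.09 ± 0.06 and did not pass.

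In the glycolytic chain, 10 of 15 enzymes fell at 4 µM against DMSO, 2 fell at 2 µM (ALDOC and ENO2) and none passed between the doses. The 2 µM count depended on the setting. Without DMSO replicate 1, ALDOA (-0.28), ENO1 (-0.22), GPI (-0.40), PFKL (-0.26) and PKM (-0.16) also passed. With no low-count filter ALDOA (-0.18), ENO1 (-0.15), GPI (-0.28) and PFKL (-0.18) also passed at 2 µM. So did GPI (-0.27) and ENO1 (-0.14) with the replicate number as a block, and LDHA (-0.10) with DESeq2. The median log2 change of the 15 enzymes at 4 µM was -0.17. ALDOC (chromosome 17, 26900133 to 26904282, minus strand), the brain-type aldolase, fell most. It had 11.8, 14.7 and 13.6 CPM at 4 µM, 14.7, 17.2 and 16.4 CPM at 2 µM and 19.3, 22.4 and 23.1 CPM in DMSO, or -0.69 ± 0.08 at 4 µM (edgeR adjusted p = 1e-07). The highest library at 4 µM lay just below the lowest at 2 µM, both lay below DMSO, and the change between the doses (-0.27 ± 0.08) missed the threshold (edgeR adjusted p = 0.073). It passed without 2 µM replicate 1 (-0.33), without 4 µM replicate 2 (-0.34) and with no low-count filter (-0.27). ALDOC lies inside RP11-192H23.4 on the same strand, which averaged 19.2 CPM against 11.3 CPM for ALDOC, so its reads are uncertain. GPI likewise shares positions with RP11-618P17.4 (78.7 CPM). ENO2, the neuronal enolase, changed by -0.39 ± 0.05 at 4 µM and the abundant ENO1 by -0.24 ± 0.06. GPI (-0.39 ± 0.10), PFKL (-0.32 ± 0.07), ALDOA (-0.27 ± 0.08), HK2 (-0.19 ± 0.04), LDHA (-0.17 ± 0.04), PGK1 (-0.15 ± 0.04) and PGAM1 (-0.12 ± 0.04) also fell. HK1, PFKP, TPI1, GAPDH and PKM had changes of -0.13 to -0.01 and did not pass. Without DMSO replicate 1, PKM (-0.21), GAPDH (-0.16) and PFKP (-0.16) passed at 4 µM, as did GAPDH without 4 µM replicate 3 (-0.18) and PKM with no low-count filter (-0.13). Of the transporters, SLC2A3 fell at both doses (-0.37 ± 0.03 at 4 µM and -0.29 ± 0.03 at 2 µM), while SLC2A1 changed by -0.10 ± 0.06 at 4 µM and did not pass, except without DMSO replicate 1 (-0.18). In the compared libraries alone the 4 µM count was 18. The calls of ALDOA (-0.26), ENO1 (-0.24), GPI (-0.39), LDHA (-0.16), PGAM1 (-0.12) and PGK1 (-0.15) ended there, with folds close to those above. PGAM1 also lost its call with no low-count filter (-0.12). Without DMSO replicate 3 the calls of ALDOA (-0.17), GPI (-0.28) and PGAM1 (-0.11) ended. Those of ALDOA and PGAM1 also ended without DMSO replicate 2 (-0.25 and -0.12), 4 µM replicate 1 (-0.20 and -0.09) or 4 µM replicate 2 (-0.25 and -0.11).

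**Figure D2:**
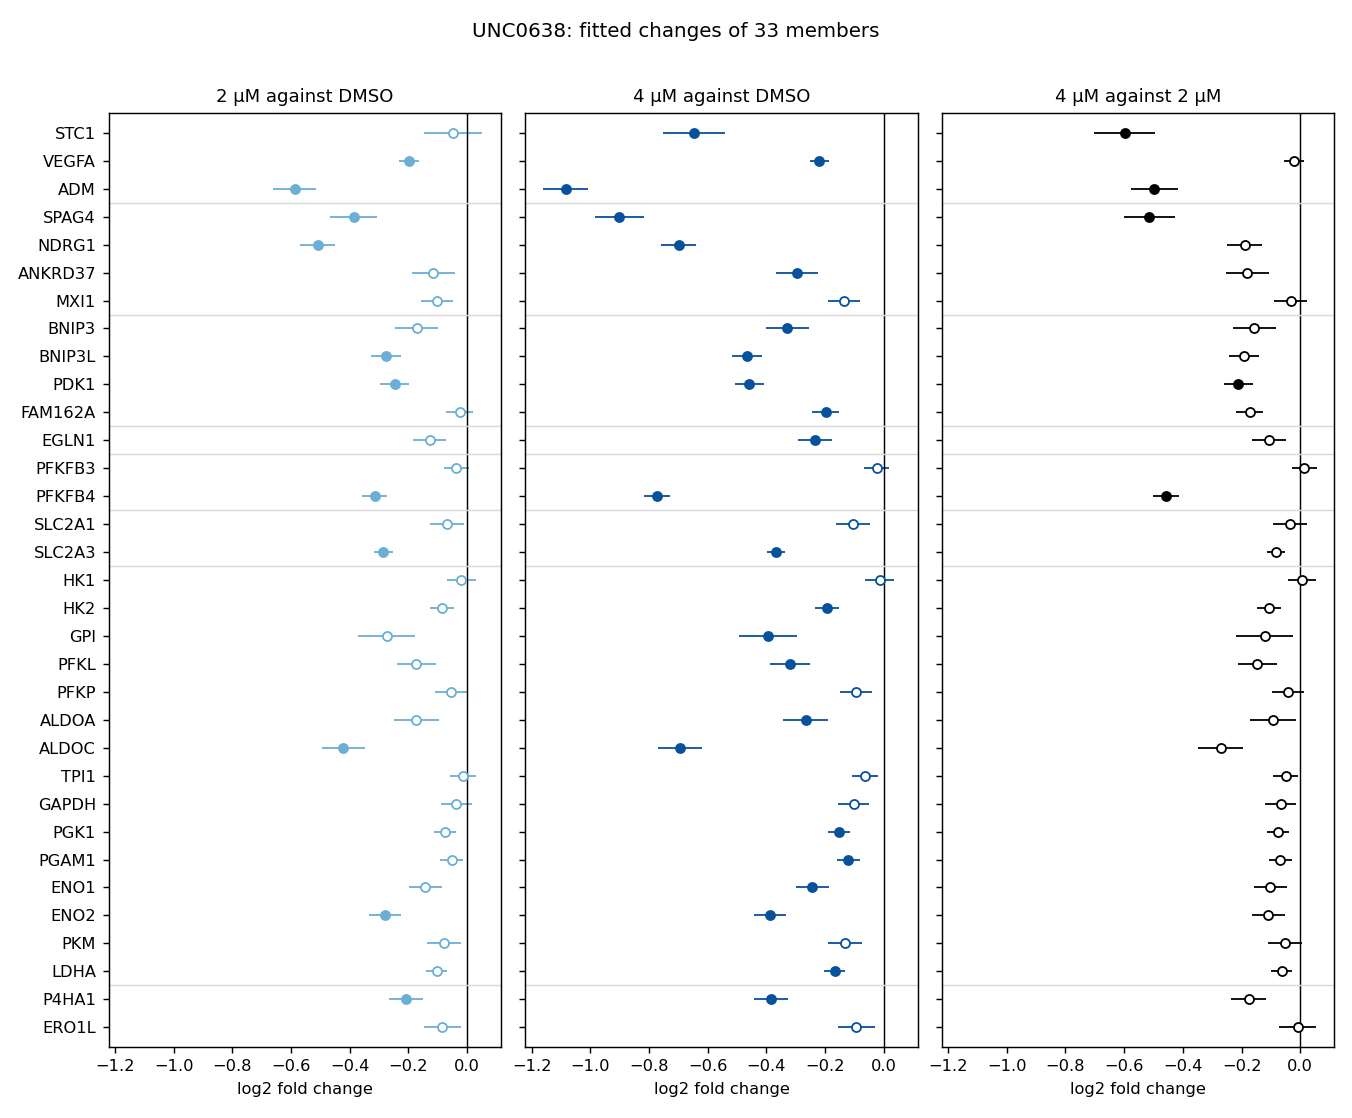
Fitted log2 fold changes (points) ± SE (bars) of the 33 tested members at 2 µM against DMSO, 4 µM against DMSO and 4 µM against 2 µM, grouped by role from secreted factors (top) to collagen and folding enzymes (bottom). Filled points passed the test and open points did not, and every point of the first 2 panels lies below 0.

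Other genes of the pathway, from lists chosen with these results known, were counted in the same fits. Of 33 tested HIF targets outside the members, 17 fell and none rose at 4 µM against DMSO (3 were higher at an unadjusted p under 0.05, none by DESeq2), beside 9.73% and 10.2% of all genes. Between the doses 6 fell and 1 rose, beside 0.452% and 1.39% of all genes. The same shares of all genes stand beside the counts of the lists that follow. MIR210HG, the host of the hypoxia microRNA miR-210, averaged 3.28 CPM at 4 µM, 5.34 CPM at 2 µM and 7.23 CPM in DMSO, a change of -0.70 ± 0.09 between doses. GBE1, the glycogen branching enzyme, changed by -0.29 ± 0.04 and ZNF395 by -0.30 ± 0.04 between doses. Of 13 tested genes of the HIF machinery, 3 rose and 1 fell at 4 µM against DMSO, and none passed between the doses by edgeR or DESeq2 (1 higher at an unadjusted p under 0.05). EPAS1 rose by 0.24 ± 0.06, CITED2, an inhibitor of HIF that HIF induces, by 0.13 ± 0.04, and ARNT fell (-0.19 ± 0.04). HIF1A averaged 90.3 ± 4.69 CPM at 4 µM against 85.9 ± 6.05 CPM in DMSO and did not pass (0.07 ± 0.06). Of 22 other glycolysis and pyruvate genes, 2 rose (SLC16A1, a lactate transporter, 0.23 ± 0.04, and C12orf5, which encodes the phosphatase TIGAR, 0.31 ± 0.07) and 3 fell at 4 µM, among them PGM1 of glycogen metabolism (-0.23 ± 0.04). Of 8 pentose phosphate genes, TKT (-0.26 ± 0.05) and PGLS (-0.20 ± 0.05) fell and RPE rose (0.16 ± 0.05). Neither of these last lists had a gene called between the doses by edgeR or DESeq2, with 2 higher and 1 lower glycolysis gene and no pentose phosphate gene at an unadjusted p under 0.05.

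With the G9a hairpins the members moved both ways. Taking the mean of both hairpins against the scrambled hairpin, 17 members fell and 5 rose, where 24.9% of all genes were lower and 25% higher. A fall in 17 of 33 is thus above the share of all genes, and a rise in 5 of 33 below it. The member median was -0.11, against 0.01 for all genes. With hairpin 2 alone 17 fell and 3 rose, beside 22.3% and 22.1% of all genes. With hairpin 3 alone 15 fell and 5 rose, beside 22.1% and 22.6%. The members that fell with both were 15 (ADM, BNIP3, FAM162A, HK2, LDHA, MXI1, P4HA1, PDK1, PFKFB4, PGAM1, SLC2A1, SLC2A3, STC1, TPI1 and VEGFA) and those that rose with both were 3 (BNIP3L, NDRG1 and SPAG4), beside 19.4% and 19.1% of all genes. The call of BNIP3 with hairpin 2 ended without scrambled replicate 2 (-0.23), and with hairpin 3 without scrambled replicate 1 (-0.21) or 2 (-0.19) or hairpin 3 replicate 3 (-0.15). With hairpin 3 it also ended under upper quartile scaling (-0.19). Counts on BNIP3 pseudogenes came to 9.54% of the BNIP3 counts. No member passed between G9a hairpins 3 and 2, and 0.00993% of all genes did. At an unadjusted p under 0.05, 4 members were higher with hairpin 3 and none lower, and DESeq2 called none. The SE of a mean of hairpins leaves out the difference between the hairpins.

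SLC2A3 (chromosome 12, 8071826 to 8088871, minus strand), the high-affinity glucose transporter GLUT3, had 38.7, 37.1 and 37.8 CPM with hairpin 2 and 39.8, 38.5 and 39.0 CPM with hairpin 3, against 67.4, 69.0 and 68.3 CPM with the scrambled hairpin. All 6 G9a libraries lay below the controls, and its log2 change was -0.83 ± 0.03 (edgeR adjusted p = 3.2e-18). Counts on its pseudogenes came to 8.21% of its own. HK2 (chromosome 2, 75061108 to 75120486, plus strand), the inducible hexokinase that begins glycolysis, had 121, 124 and 127 CPM with hairpin 2 and 126, 125 and 118 CPM with hairpin 3, against 191, 185 and 193 CPM with the scrambled hairpin. The groups did not overlap, and the change was -0.62 ± 0.04 (edgeR adjusted p = 1.2e-13). ADM had 0.721, 0.808 and 0.771 CPM and 0.786, 0.828 and 0.676 CPM with hairpins 2 and 3, against 1.03, 1.32 and 1.32 CPM with the scrambled hairpin, a change of -0.70 ± 0.12 with no overlap.

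STC1 was low in these cells, with 0.288, 0.191 and 0.193 CPM with hairpin 2 and 0.334, 0.276 and 0.293 CPM with hairpin 3, against 0.634, 0.355 and 0.712 CPM with the scrambled hairpin. Every G9a library was lower, and the log2 change was -1.07 ± 0.24 (edgeR adjusted p = 0.00063). Its fewest counts in a library were 8, and the call for hairpin 3 alone (-0.85) ended without scrambled replicate 3 (-0.63). SPAG4 went the other way, with 10.2, 9.65 and 9.83 CPM and 10.2, 10.9 and 8.52 CPM with hairpins 2 and 3, against 6.31, 6.28 and 6.97 CPM with the scrambled hairpin. All 6 G9a libraries were higher, a log2 change of 0.60 ± 0.08 (edgeR adjusted p = 5.3e-07). NDRG1 also rose, with 89.7, 85.4 and 91.3 CPM and 93.1, 102 and 96.7 CPM with hairpins 2 and 3, against 63.2, 62.4 and 69.2 CPM with the scrambled hairpin (0.52 ± 0.05).

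Of the remaining targets, MXI1 (-0.58 ± 0.05), VEGFA (-0.48 ± 0.03), PFKFB4 (-0.60 ± 0.05), PDK1 (-0.46 ± 0.04) and P4HA1 (-0.40 ± 0.05) fell with the G9a hairpins, as did the transporter SLC2A1 (-0.45 ± 0.05), FAM162A (-0.31 ± 0.04), ANKRD37 (-0.27 ± 0.07) and BNIP3 (-0.25 ± 0.07). BNIP3L rose (0.32 ± 0.05). Most of the glycolytic chain did not pass. Of 15 enzymes 5 fell (HK2, PGAM1 -0.48 ± 0.03, LDHA -0.45 ± 0.03, TPI1 -0.22 ± 0.04 and PGK1 -0.09 ± 0.03) and 2 rose (PFKL 0.18 ± 0.06 and ENO2 0.18 ± 0.05), beside 24.9% and 25% of all genes. Both counts are small and are not read as differing from these shares. GAPDH, PKM, ENO1, ALDOA, HK1, PFKP, ALDOC and GPI had changes of -0.07 to 0.09, of which GPI passed with no low-count filter (0.10). The call of PGK1 ended with upper quartile scaling (-0.05), with no low-count filter (-0.09) and without scrambled replicate 1 (-0.06) or 2 (-0.09) or G9a hairpin 3 replicate 1 (-0.08). That of PFKL ended without scrambled replicate 2 (0.13).

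With the SUV39H1 hairpins nearly the whole glycolytic chain fell. Over the mean of both hairpins against scrambled, 20 members fell and 9 rose, where 32.7% of all genes were lower and 35.1% higher. A fall in 20 of 33 (60.6%) is above the share of all genes, and a rise in 9 of 33 (27.3%) lies nearer to it, on the lower side. The member median was -0.22, against 0.03 for all genes. Of 15 glycolytic enzymes, 14 fell and 1 rose (ENO2, 0.35 ± 0.05), with a median of -0.37. With hairpin 2 alone 18 fell and 10 rose, beside 32.6% and 34.5% of all genes, and with hairpin 4 alone 19 fell and 8 rose, beside 29.2% and 31.8%. With both, 15 members fell and 7 rose, beside 24.1% and 25.4% of all genes, so the rises with both lie near the share of all genes. The 7 were ADM, ENO2, NDRG1, PFKFB3, PFKFB4, SLC2A3 and SPAG4. The call of ADM with hairpin 4 ended without scrambled replicate 1 (0.34). Among the falls, BNIP3 lost its call with hairpin 2 without hairpin 2 replicate 3 (-0.19). With hairpin 4 BNIP3 lost it without scrambled replicate 2 (-0.21) or hairpin 4 replicate 3 (-0.20). HK1 lost its call with hairpin 2 under upper quartile scaling (-0.07) and without scrambled replicate 3 (-0.12). The scrambled libraries also served the G9a comparison, so both comparisons rest on them.

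LDHA (chromosome 11, 18415935 to 18429972, plus strand), the enzyme that turns pyruvate into lactate, had 488, 492 and 497 CPM with hairpin 2 and 429, 427 and 429 CPM with hairpin 4, against 917, 921 and 886 CPM with the scrambled hairpin. Every SUV39H1 library was below every control library, and the log2 change was -0.98 ± 0.03 (edgeR adjusted p = 7.6e-20). TPI1 (chromosome 12, 6976283 to 6980112, plus strand), triose phosphate isomerase, had 501, 521 and 523 CPM and 478, 479 and 503 CPM with hairpins 2 and 4, against 809.9, 815 and 803 CPM with the scrambled hairpin. The groups were far apart, a change of -0.69 ± 0.04 (edgeR adjusted p = 5.6e-15). Pseudogene counts came to 5.80% of the TPI1 counts and 3.94% of the LDHA counts. Other falls were GAPDH -0.57 ± 0.05, PGK1 -0.51 ± 0.03, HK2 -0.47 ± 0.04, ENO1 -0.43 ± 0.05, ALDOA -0.39 ± 0.07, GPI -0.37 ± 0.08, PGAM1 -0.35 ± 0.03, PFKP -0.29 ± 0.05, PKM -0.22 ± 0.05, HK1 -0.20 ± 0.04, ALDOC -0.20 ± 0.08 and PFKL -0.16 ± 0.06. Of these, 3 passed with 1 hairpin only. PFKL averaged 174 CPM with hairpin 2 and 223 CPM with hairpin 4, against 220.4 CPM with the scrambled hairpin. ALDOC passed with hairpin 2 (-0.31 ± 0.09) and not hairpin 4 (-0.10 ± 0.09), and PKM with hairpin 4 (-0.35 ± 0.06) and not hairpin 2 (-0.09 ± 0.06). GAPDH shares positions with RP5-940J5.9 on the other strand (720.0 CPM), so some of its reads are uncertain. The calls of ALDOC (-0.15) and PFKL (-0.11) ended with upper quartile scaling and without scrambled replicate 3 (-0.19 and -0.12). ALDOC also lost its call without scrambled replicate 1 (-0.19) or SUV39H1 hairpin 2 replicate 2 (-0.18).

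The transporters split. SLC2A1 (chromosome 1, 43391052 to 43424530, minus strand), the common glucose transporter GLUT1, had 42.1, 42.2 and 43.0 CPM with hairpin 2 and 44.3, 46.2 and 48.6 CPM with hairpin 4, against 79.9, 78.5 and 86.0 CPM with the scrambled hairpin. It fell by 0.88 on the log2 scale (SE 0.05, edgeR adjusted p = 2.2e-14), with no overlap. SLC2A3 had 126, 125 and 129.7 CPM and 112, 109 and 109 CPM with hairpins 2 and 4, against 67.4, 69.0 and 68.3 CPM with the scrambled hairpin. All 6 libraries were higher, a change of 0.79 ± 0.03 (edgeR adjusted p = 1.7e-18). NDRG1 had 138, 139.7 and 148 CPM and 90.5, 87.5 and 94.3 CPM with hairpins 2 and 4, against 63.2, 62.4 and 69.2 CPM with the scrambled hairpin, and rose by 0.81 ± 0.06 (edgeR adjusted p = 8.5e-13). Both regulators rose, PFKFB4 by 0.55 ± 0.04 and PFKFB3 by 0.43 ± 0.04, as did ADM (0.69 ± 0.10), SPAG4 (0.63 ± 0.08), VEGFA (0.32 ± 0.03) and P4HA1 (0.25 ± 0.05). PDK1 (-0.45 ± 0.04), FAM162A (-0.56 ± 0.04), BNIP3 (-0.25 ± 0.07), MXI1 (-0.26 ± 0.05) and EGLN1 (-0.14 ± 0.05) fell. EGLN1 lost its call with upper quartile scaling (-0.09) and without scrambled replicate 1 (-0.13) or 2 (-0.11). STC1 (-0.40 ± 0.23), ANKRD37, ERO1L and BNIP3L did not pass over the mean of the hairpins.

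**Figure D3:**
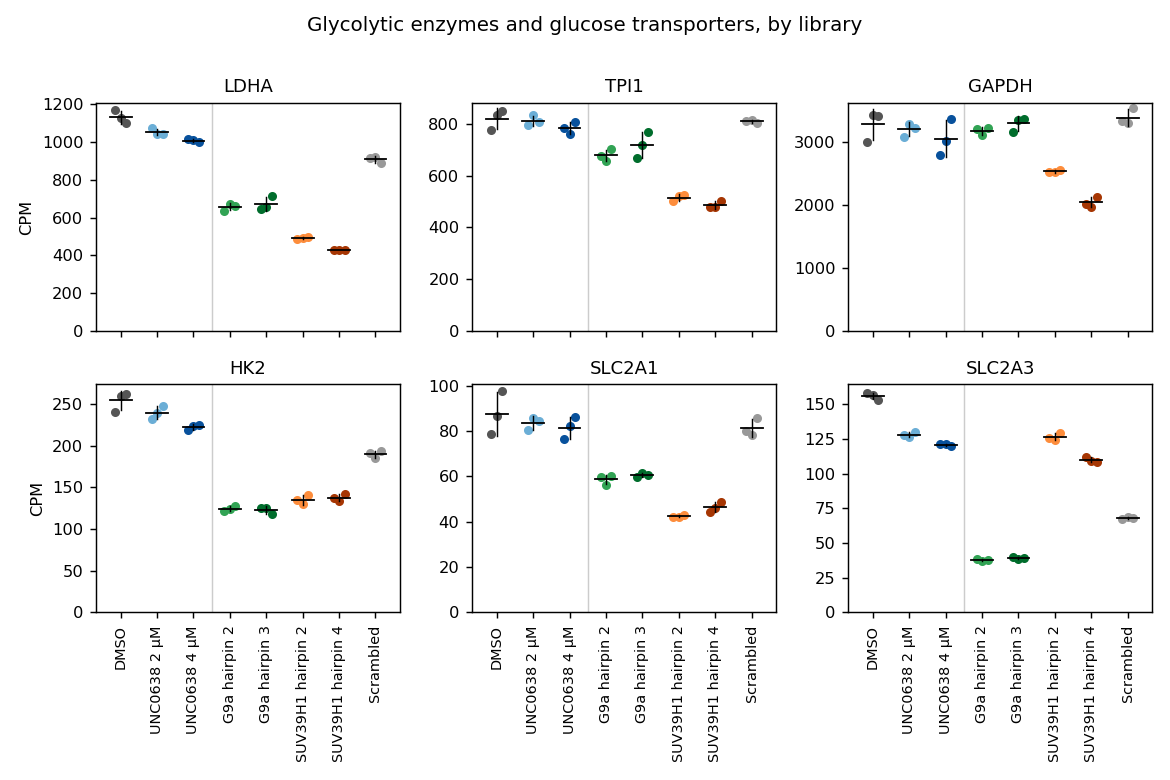
CPM per library (linear axes from 0) of LDHA, TPI1, GAPDH, HK2, SLC2A1 and SLC2A3 in the 8 groups, with means (horizontal lines) and SD (vertical lines, n = 3). LDHA, TPI1, GAPDH and SLC2A1 are lowest with the SUV39H1 hairpins, whereas SLC2A3 is lowest with the G9a hairpins.

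The SUV39H1 hairpins differed from each other. Hairpin 4 against hairpin 2 gave 17 members lower and 4 higher, where 20.9% of all genes were lower and 22% higher. STC1 had 0.175, 0.182 and 0.172 CPM with hairpin 4 and 0.819, 1.07 and 1.04 CPM with hairpin 2, against 0.634, 0.355 and 0.712 CPM with the scrambled hairpin. The hairpins lay on opposite sides of the control, and their difference was -2.44 ± 0.26 (edgeR adjusted p = 2.2e-08). The rise with hairpin 2 (0.82) lost its call without scrambled replicate 2 (0.52), and without that library the fall over the mean of the hairpins passed (-0.70). BNIP3L was also on opposite sides, -0.33 ± 0.05 with hairpin 4 and 0.40 ± 0.05 with hairpin 2, and both passed. PFKFB4 was 0.18 ± 0.05 with hairpin 4 and 0.92 ± 0.05 with hairpin 2. VEGFA had 409, 395 and 409 CPM with hairpin 4 and 278, 271 and 282 CPM with hairpin 2, against 263, 270.5 and 273 CPM with the scrambled hairpin. It rose with hairpin 4 (0.59 ± 0.03), and with hairpin 2 its change was 0.04 ± 0.03 and did not pass, except with upper quartile scaling (0.11). Likewise P4HA1 was -0.01 ± 0.06 with hairpin 4 and 0.52 ± 0.06 with hairpin 2, and MXI1 -0.54 ± 0.06 with hairpin 4 and 0.03 ± 0.05 with hairpin 2. Among enzymes LDHA, GAPDH, PKM, PGAM1, ENO1, PGK1 and HK1 were lower with hairpin 4 than with hairpin 2, by log2 differences of -0.31 to -0.13, and PFKL and ENO2 higher (0.36 and 0.15). The calls of ENO1, HK1 and ENO2 each ended without a library. ENO1 lost it without hairpin 4 replicate 1 (-0.14) or 2 (-0.12) or hairpin 2 replicate 3 (-0.13), and HK1 without hairpin 4 replicate 1 (-0.09) or 2 (-0.10) or hairpin 2 replicate 2 (-0.13) or 3 (-0.12), or with no low-count filter (-0.10). ENO2 lost it without hairpin 4 replicate 3 (0.12) or hairpin 2 replicate 1 (0.15) or 2 (0.11), and with DESeq2 (0.14), RLE scaling (0.14) or upper quartile scaling (0.12). SUV39H1 mRNA itself averaged 21.1 CPM with hairpin 4 and 18.6 CPM with hairpin 2. The summed myelomonocytic markers ranged from 4231 to 4278 CPM with hairpin 4 and from 5677 to 5783 CPM with hairpin 2, and their part in these differences was not tested.

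**Figure D4:**
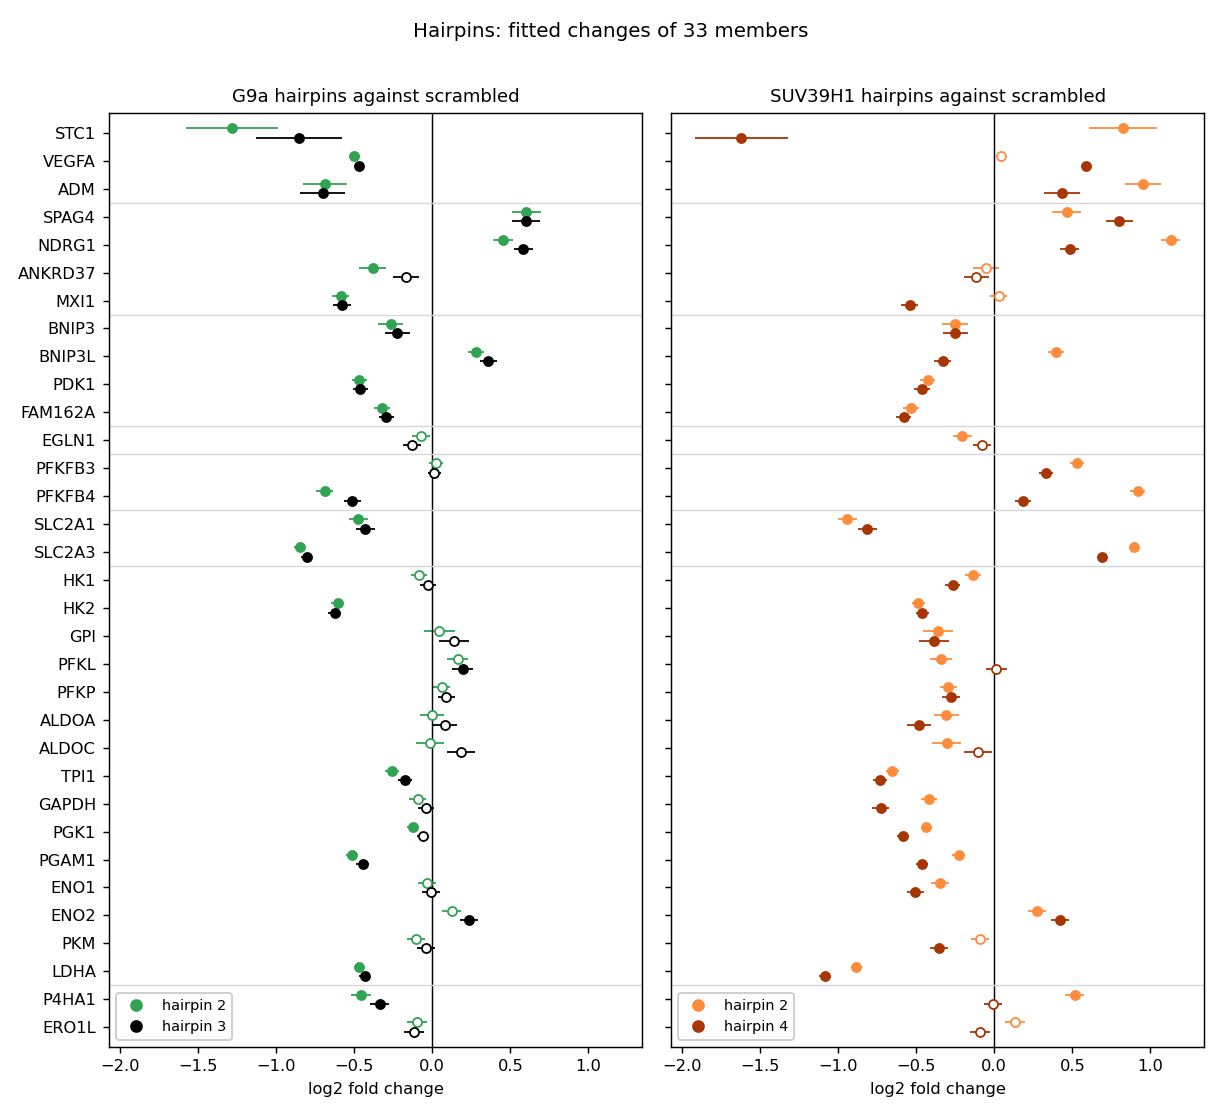
Fitted log2 fold changes (points) ± SE (bars) of the 33 tested members for each hairpin against scrambled, with G9a hairpins on the left and SUV39H1 hairpins on the right, grouped by role. Filled points passed the test and open points did not. STC1 and BNIP3L lie on opposite sides of 0 with the SUV39H1 hairpins, while no member passed between the G9a hairpins.

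Set directly against each other, the knockdowns differed in 29 of 33 members, with 15 higher and 14 lower with G9a hairpins than with SUV39H1 hairpins, beside 32.9% and 32.6% of all genes. Of 15 glycolytic enzymes 12 were higher with the G9a hairpins, led by LDHA (0.53 ± 0.03), GAPDH (0.51 ± 0.04) and TPI1 (0.48 ± 0.03), and 3 lower. Over the mean of the hairpins, the 3 secreted factors, both regulators and SLC2A3 were lower with G9a. For STC1 this holds for the mean only, with 0.224 and 0.301 CPM with G9a hairpins 2 and 3, against 0.977 and 0.176 CPM with SUV39H1 hairpins 2 and 4. The others included SLC2A3 (-1.62 ± 0.02), ADM (-1.39 ± 0.09), PFKFB4 (-1.15 ± 0.04) and VEGFA (-0.80 ± 0.02). SPAG4, PDK1, BNIP3 and EGLN1 did not pass, with 95% intervals of -0.15 to 0.09, -0.09 to 0.05, -0.11 to 0.12 and -0.04 to 0.13.

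For the other pathway genes, the shares of all genes to set beside each count are 25% higher and 24.9% lower with the G9a hairpins, and 35.1% higher and 32.7% lower with the SUV39H1 hairpins. Several counts lie near these shares. Of 33 HIF targets outside the members, 9 rose and 16 fell with the G9a hairpins, and 14 rose and 10 fell with the SUV39H1 hairpins. HMOX1, the haem-degrading enzyme, averaged 27.9 and 26.6 CPM with the G9a hairpins and 75.1 and 91.1 CPM with the SUV39H1 hairpins, against 8.81 CPM with the scrambled hairpin. The chemokine receptor gene CXCR4 (-1.12 ± 0.03) and DDIT4, an inhibitor of mTOR (-1.03 ± 0.05), fell with the G9a hairpins. The mitochondrial adenylate kinase AK4 (-1.58 ± 0.05) and TFRC, the transferrin receptor (-0.74 ± 0.03), fell with the SUV39H1 hairpins. In the HIF machinery, 3 genes rose and 6 fell with the G9a hairpins, and 4 rose and 7 fell with the SUV39H1 hairpins. EPAS1 rose by 0.49 ± 0.05 with the G9a hairpins and 0.64 ± 0.05 with the SUV39H1 hairpins. CITED2 changed by -0.21 ± 0.04 with the G9a hairpins and -0.31 ± 0.04 with the SUV39H1 hairpins. CUL2, of the VHL ligase, fell with the G9a hairpins (-0.21 ± 0.04), and TCEB1, its elongin C, with the SUV39H1 hairpins (-0.53 ± 0.05). Among 22 other glycolysis and pyruvate genes, 5 rose and 8 fell with the G9a hairpins, and 3 rose and 10 fell with the SUV39H1 hairpins. SLC16A1 fell with both (-0.47 ± 0.04 with G9a and -0.82 ± 0.04 with SUV39H1). The pyruvate dehydrogenase genes PDP2 (-0.64 ± 0.04) and PDHA1 (-0.35 ± 0.03) fell with the G9a hairpins. With the SUV39H1 hairpins LDHB fell (-0.84 ± 0.04) and HK3, a hexokinase abundant in mature myeloid cells, rose (1.41 ± 0.05). Of 8 pentose phosphate genes, 3 rose and 4 fell with the G9a hairpins, and 2 rose and 4 fell with the SUV39H1 hairpins. PGD rose (0.42 ± 0.04 with G9a, 0.61 ± 0.04 with SUV39H1), while RPIA (-0.44 ± 0.03 with G9a, -0.65 ± 0.03 with SUV39H1) and PRPS1 (-0.35 ± 0.03 with G9a, -0.53 ± 0.03 with SUV39H1) fell.

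The control groups themselves differed strongly in these genes. In scrambled against DMSO libraries 28 of 33 members were lower and none higher, where 16.5% of all genes were lower and 14.9% higher. No member was higher at an unadjusted p under 0.05 or by DESeq2, which also called 28 lower. Over all genes DESeq2 called 5859 in either direction. The member median was -0.42, against -0.01 for all genes. STC1 had 0.634, 0.355 and 0.712 CPM with the scrambled hairpin, against 5.84, 4.82 and 4.63 CPM in DMSO, a log2 change of -3.22 ± 0.15 (edgeR adjusted p = 1.2e-14). ADM had 1.03, 1.32 and 1.32 CPM with the scrambled hairpin, against 7.10, 6.56 and 6.85 CPM in DMSO (-2.46 ± 0.09). The groups did not overlap for either gene. PFKFB4 had 18.2, 18.0 and 18.6 CPM with the scrambled hairpin, against 78.6, 82.8 and 86.8 CPM in DMSO (-2.18 ± 0.05). NDRG1 had 63.2, 62.4 and 69.2 CPM with the scrambled hairpin, against 258, 286 and 295 CPM in DMSO (-2.11 ± 0.06), and ALDOC 8.27, 7.68 and 8.19 CPM against 19.3, 22.4 and 23.1 CPM (-1.43 ± 0.08). All scrambled libraries again lay below all DMSO libraries.

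P4HA1 (-1.34 ± 0.06), BNIP3L (-1.29 ± 0.05), SLC2A3 (-1.19 ± 0.03), BNIP3 (-1.15 ± 0.08), SPAG4 (-1.07 ± 0.09), ENO2 (-1.04 ± 0.06) and PDK1 (-0.82 ± 0.05) followed. Of 15 glycolytic enzymes 13 were lower in the scrambled libraries, and 11 of these changed by -0.43 to -0.18. The calls of PFKL, PFKP and PKM ended without DMSO replicate 3 (-0.14, -0.13 and -0.10) or scrambled replicate 2 (-0.18, -0.16 and -0.16), and in the compared libraries alone. Those of PFKP and PKM ended without DMSO replicate 2 (-0.16 and -0.17), and that of PKM without scrambled replicate 1 (-0.17). SLC2A1, VEGFA, TPI1, MXI1 and GAPDH did not pass, with changes of -0.11 to 0.05, but SLC2A1 passed without DMSO replicate 1 (-0.17). Of 33 HIF targets outside the members 28 were lower and 1 higher in scrambled than in DMSO libraries, beside 16.5% and 14.9% of all genes, shares that also stand beside the lists that follow. They included HMOX1 (-3.58 ± 0.07), MIR210HG (-2.86 ± 0.12) and the histone demethylase KDM3A (-1.01 ± 0.04). In the HIF machinery 1 of 13 genes was lower (ARNT, -0.18 ± 0.04) and none higher by edgeR, at an unadjusted p under 0.05 or by DESeq2. Other glycolysis genes went both ways, 5 higher and 4 lower, with PGM1 (-0.51 ± 0.04), PDK3 (-0.56 ± 0.05) and HK3 (-0.55 ± 0.06) lower. Of 8 pentose phosphate genes PGD (-0.25 ± 0.04) and PGLS (-0.22 ± 0.05) were among the 3 lower and PRPS1 (0.17 ± 0.04) among the 2 higher. The solvent and the hairpin vector differ together between these groups and cannot be told apart.

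**Figure D5:**
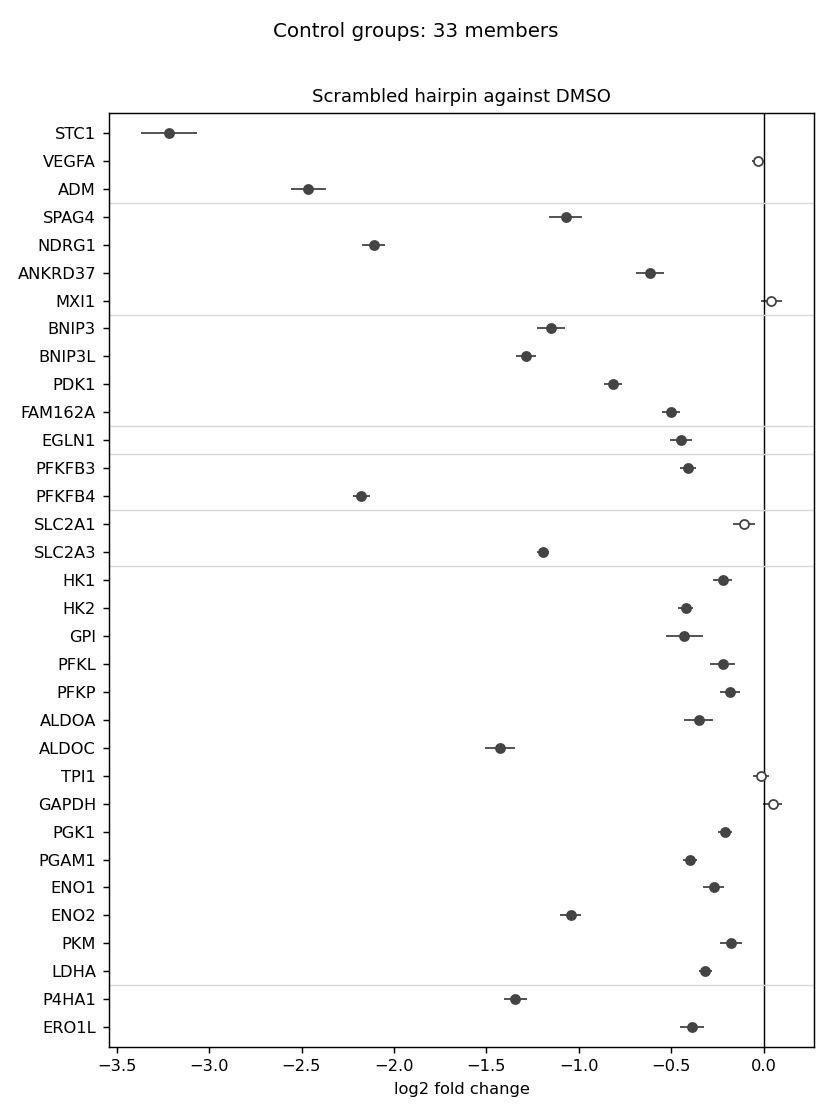
Fitted log2 fold changes (points) ± SE (bars) of the 33 tested members in scrambled against DMSO libraries, grouped by role. Filled points (28) passed the test and open points (5) did not, and STC1, ADM, PFKFB4 and NDRG1 lie below -2.

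Because the controls differ, the responses were compared as differences of differences, each arm against its own control. Both differences below use the same 4 µM, DMSO and scrambled libraries, so a gene found in both is not found independently. The response to 4 µM UNC0638 minus that to the G9a hairpins was below 0 in 10 members and above 0 in 8 by the test, where 22.3% and 22.5% of all genes were so called. SPAG4 (-1.50 ± 0.12) and NDRG1 (-1.22 ± 0.08) fell with the inhibitor and rose with the hairpins. For PDK1 (0.01 ± 0.06) and P4HA1 (0.01 ± 0.08) the difference did not pass, with 95% intervals of -0.13 to 0.14 and -0.15 to 0.17. Set against the SUV39H1 hairpins, 11 members were below 0 and 11 above, where 29.6% and 28.1% of all genes were so called, and with upper quartile scaling 13 were below and 8 above. ADM (-1.78 ± 0.13) and PFKFB4 (-1.32 ± 0.06) fell with the inhibitor and rose with the SUV39H1 hairpins, and LDHA (0.82 ± 0.05) fell more with the hairpins.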

How the data were processed

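RNA was measured in 24 libraries of U937 cells, 3 in each of 8 groups, named from the sample titles. Raw gene counts were made with STAR, featureCounts and the hg19 build, per the submitters' processing notes (their versions: not given in the sources used here), with an unstranded kit per the labels' protocols. The authors deposited them with a gene length, another value used only for RPKM. No per-sample column of the gene table was left unused (0). The table of repeat elements was not used here.

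Genes passing filterByExpr (minimum count 10, total 15) were fitted over all groups with edgeR 4.0.16 (quasi-likelihood, TMM scaling) in R 4.3.3, after the procedure was tested on simulated data. Adjusted p is Benjamini-Hochberg over 20147 genes, called under 0.05, and SE is the log2 fold change over the root of F. DESeq2 1.42.0, other scalings, no filter, the compared libraries alone, the replicate number as a block and leaving out each library were alternatives. No replicate pair was identical (0), and replicates differed by a chi-square per gene of 1.99 to 22.1. Library totals of 31545854 to 53803704 limit precision most for STC1 (8 to 259 counts per library) and ADM.

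Members and lists were chosen with earlier results of these data known. Library values are given for members called between doses and for up to 5 called members with the largest change in the other main comparisons, and up to 3 genes per further list by smallest p. VEGFA, PFKFB3 and HIF1A, and genes given by fold change alone, were chosen after their values were seen.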

Additional observations from a re-analysis of the deposited data

Results flagged for a closer look

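The change at 4 µM UNC0638 against DMSO and the change with a pair of hairpins against the scrambled hairpin were set against each other, and the difference itself was tested in 1 edgeR fit. A difference below 0 means a lower value in the inhibitor arm, relative to its own control, than in the hairpin arm. The tests against the G9a and the SUV39H1 hairpins share the 4 µM, DMSO and scrambled libraries.

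Against the G9a hairpins 18 of 33 members passed, 10 below 0 and 8 above, where 22.3% and 22.5% of all genes did. The log2 difference was below 0 for SPAG4 (-1.50), NDRG1 (-1.22), BNIP3L (-0.79), ALDOC (-0.78), ENO2 (-0.57), PFKL (-0.50), GPI (-0.49), ALDOA (-0.31), ENO1 (-0.22) and PFKFB4 (-0.17). It was above 0 for SLC2A3 (0.46), MXI1 (0.45), HK2 (0.42), PGAM1 (0.36), SLC2A1 (0.35), LDHA (0.28), VEGFA (0.26) and TPI1 (0.15). SPAG4, NDRG1, BNIP3L and ENO2 rose with the G9a hairpins and fell with the inhibitor, while SLC2A3, HK2 and VEGFA fell in both arms, and further with the hairpins. For SPAG4, NDRG1 and ENO2 the scrambled hairpin had the lowest mean of the 8 groups, so these rises start from a low control. NDRG1 averaged 64.9 CPM with the scrambled hairpin and 88.8 and 97.2 CPM with G9a hairpins 2 and 3. It averaged 172 CPM at 4 µM and 280 CPM in DMSO. STC1 (0.42) did not pass, but passed without scrambled replicate 2 (0.73). Leaving out single libraries ended some calls. Calls lost were TPI1 (0.12) without DMSO replicate 1, and ALDOA (-0.21), ENO1 (-0.16) and PFKFB4 (-0.13) without DMSO replicate 3. The test was also missed by TPI1 (0.14) without G9a hairpin 2 replicate 2, and TPI1 (0.13) without G9a hairpin 3 replicate 1. Calls lost were TPI1 (0.15) without scrambled replicate 1, and PFKFB4 (-0.16) and TPI1 (0.15) without scrambled replicate 2. The test was also missed by ALDOA (-0.23), ENO1 (-0.17) and PFKFB4 (-0.13) without 4 µM replicate 1, and PFKFB4 (-0.15) without 4 µM replicate 2. Calls lost were TPI1 (0.13) without 4 µM replicate 3. PFKFB4 also missed the test with DESeq2 (-0.15), RLE scaling (-0.15), no low-count filter (-0.17) and the compared libraries alone (-0.16), and TPI1 with upper quartile scaling (0.11) and no low-count filter (0.15). PFKP (-0.17) did not pass, but did so in 7 settings, among them without DMSO replicate 1 (-0.23), G9a hairpin 3 replicate 3 (-0.18), scrambled replicate 3 (-0.20) or 4 µM replicate 3 (-0.21). ADM (-0.39) passed with upper quartile scaling (-0.43) and without DMSO replicate 2 (-0.42) or G9a hairpin 3 replicate 3 (-0.43).

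Against the SUV39H1 hairpins 22 of 33 members passed, 11 below 0 and 11 above, where 29.6% and 28.1% of all genes did. The log2 difference was below 0 for ADM (-1.78), SPAG4 (-1.53), NDRG1 (-1.50), PFKFB4 (-1.32), SLC2A3 (-1.16), ENO2 (-0.74), P4HA1 (-0.64), VEGFA (-0.53), BNIP3L (-0.50), ALDOC (-0.49) and PFKFB3 (-0.45). It was above 0 for LDHA (0.82), SLC2A1 (0.77), TPI1 (0.63), GAPDH (0.47), FAM162A (0.36), PGK1 (0.36), HK2 (0.28), PGAM1 (0.23), PFKP (0.19), HK1 (0.19) and ENO1 (0.18). ADM, SPAG4, NDRG1, PFKFB4 and SLC2A3 rose with the SUV39H1 hairpins and fell with the inhibitor, while LDHA and PGK1 fell in both arms, and further with the hairpins. These differences use the mean of SUV39H1 hairpins 2 and 4, which differed from each other. BNIP3L rose with hairpin 2 and fell with hairpin 4. Against scrambled, P4HA1 passed with hairpin 2 and not hairpin 4, and VEGFA with hairpin 4 and not hairpin 2. Calls lost were ENO1 (0.12) and PFKP (0.13) without DMSO replicate 1, and ENO1 (0.18) without SUV39H1 hairpin 2 replicate 2. The test was also missed by ENO1 (0.18) without SUV39H1 hairpin 4 replicate 1, and ENO1 (0.18) without SUV39H1 hairpin 4 replicate 2. Calls lost were ENO1 (0.15) and PFKP (0.16) without scrambled replicate 3, and ENO1 (0.13), HK1 (0.14) and PFKP (0.15) without 4 µM replicate 3. With upper quartile scaling ENO1 (0.12), HK1 (0.13) and PFKP (0.13) missed the test and ANKRD37 (-0.27) and PFKL (-0.22) passed, and in the compared libraries alone ENO1 (0.19) missed it. PFKL (-0.24) and MXI1 (0.20) also passed without DMSO replicate 1, PKM (0.17) without DMSO replicate 3 and ANKRD37 (-0.26) without 4 µM replicate 1.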

How the results depend on the processing

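The count of members called between 4 µM and 2 µM was 5, but 9 with no filter on low counts and 10 with the replicate number as a block; the cause was not tested. It was 4 to 6 when single libraries were left out. In the other comparisons the counts without single libraries were 21 to 28 for 4 µM against DMSO, 10 to 15 for 2 µM against DMSO, 20 to 24 for G9a hairpins and 27 to 29 for SUV39H1 hairpins against scrambled. They were 17 to 19 with both G9a hairpins, 21 to 22 with both SUV39H1 hairpins, 0 between the G9a hairpins, 19 to 20 between the SUV39H1 hairpins, 28 to 29 for G9a against SUV39H1 hairpins, 25 to 29 for scrambled against DMSO, 15 to 20 for 4 µM against the G9a response and 19 to 23 against the SUV39H1 response. Of 304 calls of a member in a comparison, 265 held in every setting run and 0 reversed.

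Over all genes, the compared libraries alone gave 1993 calls against 4012 for 4 µM against DMSO, 717 against 1444 for 2 µM against DMSO and 236 against 371 between the doses. Between the G9a hairpins 1 to 11 genes were called over the settings, against 2. The labels give replicate numbers no shared source. Of same-numbered pairs in different groups 16 of 84 correlated above 0.1 (median 0.0417, range -0.0931 to 0.228), against 6 of 168 other-numbered pairs (median -0.0187). Same-numbered libraries were thus somewhat more alike, a hint from the data and short of every pair, and 15 of 24 libraries lay closest to their own number. Among DMSO, 2 µM and 4 µM every same-numbered pair was above 0 (0.0198 to 0.228). Among the G9a hairpins and scrambled such pairs ran from -0.0693 to 0.0735, and among the SUV39H1 hairpins and scrambled from -0.00724 to 0.143. With the block, ALDOC (-0.27), BNIP3 (-0.16), BNIP3L (-0.19), FAM162A (-0.17) and NDRG1 (-0.19) were gained between the doses, and member counts were 26 for 4 µM and 14 for 2 µM against DMSO, 24 for G9a and 29 for SUV39H1 hairpins, and 28 for scrambled against DMSO. Depth limits STC1 and ADM most.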
